A study of Homo sapiens with 16 samples.

Results

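The CU1ENC and CU1ENU transcript forms of the long non-coding RNA gene LINC01016 were compared with the CU1 transcript in HEK293, a human embryonic kidney cell line in long laboratory use. The comparison used the 4 libraries whose titles name CU1ENC or CU1ENU, 2 of each and here together called CU1EN, and the 2 libraries titled CU1. These were 6 of the 16 libraries of the series, and the replicate number in the title was kept as a block. The labels do not spell out the form names, and no meaning is assumed for them here. Cells in all 3 groups had received 5 micrograms of a pcDNA3.0 plasmid carrying the named transcript, by lipid transfection in 60 mm plates, and were collected 48 hours later. HEK293 cells given the empty plasmid (2 libraries) and untransfected parental HEK293 cells (2 libraries) served as background. All groups thus share 1 cell line, and all but the parental one a transient delivery. The share of cells that took up plasmid was not recorded, and the labels do not say whether replicates were separate cultures. Every p-value here is therefore set against variation among these libraries, part or all of which may be technical.

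Long non-coding RNA genes are often spliced into many forms, and the series asked by its title whether forms of LINC01016, a testis RNA, differ in the processes they affect. An RNA of this kind can act through sequence that one form carries and another lacks. Plasmid DNA delivered to the cytosol is itself a signal: in many cells it is sensed through cGAS and STING1, which leads to interferon production and to the transcription of antiviral interferon-stimulated genes.

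The sequences shown here belong to the RNA and promoters that the results turn on. A 142-base stretch of LINC01016 is shown because the annotated gene on the opposite strand, ENSG00000233183, covers it and because 4 of the 5 transcripts of GENCODE 29 hold it (chr6:33892310-33892451, GRCh38, minus strand, exon 3). The table used here holds counts per gene, so which of the cloned forms carry this stretch was not measured.
LINC01016 exon 3: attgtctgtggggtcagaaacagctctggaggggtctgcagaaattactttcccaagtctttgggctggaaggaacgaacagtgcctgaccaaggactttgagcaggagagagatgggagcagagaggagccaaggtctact

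The promoters of ISG15 and IFIT1, both strongly interferon-inducible, are shown with capitals on each pair of GAAA runs with any 2 bases between them, the core of the interferon-stimulated response element, on either strand (RefSeq promoter windows of GRCh38.p14, 250 bases before to 50 after the start, chr1:1013247-1013546 and chr10:89392373-89392672, both plus strand). ISG15 held 2 matches that overlap, and IFIT1 held 2 on the minus strand. The motif was found in 29 of 42 interferon-list genes that have a window (69.05%), against 1195 of 27305 genes in all (4.376%). By single window the share was 3.574% of 35116 windows. A match describes letters and is not a measured binding site.
ISG15 promoter: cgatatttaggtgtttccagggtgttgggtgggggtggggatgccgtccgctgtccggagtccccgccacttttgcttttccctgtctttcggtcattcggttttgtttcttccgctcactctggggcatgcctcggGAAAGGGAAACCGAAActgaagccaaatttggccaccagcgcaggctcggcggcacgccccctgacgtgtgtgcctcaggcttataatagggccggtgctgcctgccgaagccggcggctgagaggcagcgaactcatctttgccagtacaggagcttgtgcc
IFIT1 promoter: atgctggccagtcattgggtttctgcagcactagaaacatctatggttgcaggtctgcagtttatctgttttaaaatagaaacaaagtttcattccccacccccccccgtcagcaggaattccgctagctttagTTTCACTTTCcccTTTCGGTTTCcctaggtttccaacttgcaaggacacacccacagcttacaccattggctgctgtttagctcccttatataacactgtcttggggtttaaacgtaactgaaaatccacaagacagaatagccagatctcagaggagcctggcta

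The 16 libraries held 15040770 to 17255935 counts each, all within 15040770 to 16375455 for the 6 compared here, so depth hardly differed between groups. Of 15 HEK293 and embryonic kidney markers, 13 lay above 1 CPM, the usual count scaled to library size, while PAX8 (at most 1 count) and CITED1 did not. The highest were VIM, KRT8 and KRT18, at means of 1322, 811 and 274 CPM over the 6 libraries. The summed level of the 15 was 2815 to 3102 CPM in CU1EN and 2771 to 3099 CPM in CU1. Summed markers of other cell types were also close. Fibroblast markers summed to 132 to 149 CPM in CU1EN and 134 to 146 CPM in CU1, keratinocyte markers to 351 to 359 and 349 to 365 CPM, and leukocyte and erythroid markers to 4.62 to 6.05 and 5.12 to 6.31 CPM. Kidney tubule markers summed to 10.5 to 16.95 CPM in CU1EN and 9.93 to 12.4 CPM in CU1, with 3 of 12 at 0 in all 6 libraries. Mitochondrially encoded genes took 1.22% to 1.497% of counts in CU1EN and 1.29% to 1.39% in CU1.

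LINC01016 (ENSG00000249346), on the minus strand of chromosome 6 at 33867506 to 33896914 (GRCh38.p13), was expressed from the plasmid in all 6 libraries. This sets them apart from empty vector and parental libraries. It cannot check which form a library received, since T1, T2 and CU2 libraries also averaged 6425, 4969 and 2839 CPM. The LINC01016 level, as CPM of the deposited total, was 7299 and 6507 in the CU1ENC libraries of replicates 1 and 2, 12326 and 8417 in the CU1ENU libraries, and 10838 and 6138 in the CU1 libraries. The groups overlapped, and replicate 1 was the higher library in each. CU1EN averaged 8637 ± 2581 CPM (SD, n = 4) and CU1 8488 ± 3323 CPM (SD, n = 2), a difference of 149 CPM with an exact two-sided permutation p of 0.933. The edgeR fit gave a log2 fold change of 0.01 ± 0.16 (standard error, SE) with a 95% interval of -0.38 to 0.40. A difference in LINC01016 counts was thus not detectable at this spread, while one inside that interval cannot be told from none. The length and exon content of the cloned forms are not given, so these counts do not measure the dose of RNA molecules. By form the log2 fold change was -0.27 ± 0.19 in CU1ENC (95% interval -0.72 to 0.18) and 0.30 ± 0.19 in CU1ENU (-0.15 to 0.75). The pooled value thus averages estimates of opposite sign, though both intervals include 0 and CU1ENC lay above CU1 in replicate 2. CU1ENC against CU1ENU was at -0.57 ± 0.19, with a 95% interval of -1.02 to -0.12. Its unadjusted edgeR p was 0.0209, and it did not pass after adjustment. The pooled value was -0.01 without the replicate block, and it ran from -0.26 without CU1 replicate 2 to 0.32 without CU1 replicate 1. In the empty vector libraries LINC01016 had 1 and 0 counts, and in parental libraries 0 counts in both.

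ENSG00000233183 (chromosome 6, 33891327 to 33927631, plus strand) stood at a larger share of the LINC01016 counts in all CU1EN libraries than in CU1. An exact test over so few libraries could not decide on this difference. It overlaps LINC01016 in 3 exonic blocks of 862 bases, which are 17.1% of the LINC01016 exons and 5.91% of its own. It had 8867 and 4645 counts in CU1ENC, 12265 and 5309 in CU1ENU, and 5799 and 2989 in CU1. As a share of the LINC01016 counts of the same library this was 8.08% and 4.36% in CU1ENC, 6.38% and 4.02% in CU1ENU, and 3.31% and 3.003% in CU1. All 4 CU1EN libraries lay above both CU1 libraries, and in CU1EN the replicate 1 libraries were the higher ones. The share averaged 5.71% ± 1.89 (SD, n = 4) in CU1EN and 3.16% ± 0.217 (SD, n = 2) in CU1, a difference of 2.55 percentage points. An exact two-sided permutation test gave p = 0.133, and p = 0.111 when libraries were exchanged only within a replicate number. The smallest p-values that 4 against 2 libraries allow are 0.0667 and 0.111.

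The other cloned forms placed these shares in a range. T1 libraries measured 7.37% and 7.002%, T2 libraries 6.84% and 6.44%, and CU2 libraries 2.92% and 3.63%, so CU1 stood near CU2, and the CU1EN forms stood between CU2 and T1 except for CU1ENC replicate 1, which was higher than all others. In edgeR over all 16 libraries the log2 fold change of ENSG00000233183 in CU1EN against CU1 was 0.84 ± 0.30 SE, with an adjusted p of 1.00. In a fit of the 6 libraries alone it was 0.83 with an adjusted p of 4.30e-17, the only fit run that called it. Counting used strand, yet the plasmid transcript and the opposite-strand gene share bases, and how much of this signal was antisense transcription was not tested. The exon content of the cloned forms is not given, so the shares compare counts and not RNA molecules.

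**Figure D1:**
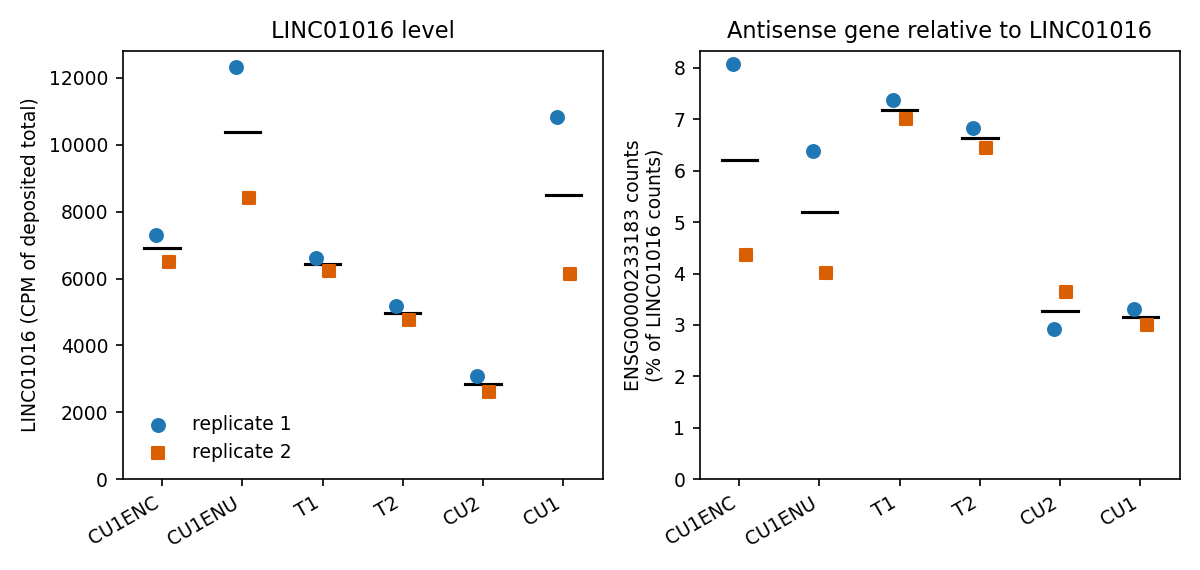
Left, LINC01016 level in CPM of the deposited total; right, ENSG00000233183 counts as a percentage of LINC01016 counts, for each library of the 6 transcript groups, with circles for replicate 1, squares for replicate 2 and bars for group means. LINC01016 overlapped between CU1EN forms and CU1, while all 4 CU1EN shares (4.02% to 8.08%) lay above the CU1 shares of 3.31% and 3.003%.

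Across the transcriptome, no gene passed in CU1EN against CU1. Of 19316 genes tested by edgeR with the replicate block, 0 were higher and 0 lower at an adjusted p under 0.05 (0% called), and the lowest adjusted p was 1.00. DESeq2 with the block also called 0. At an unadjusted edgeR p under 0.05 there were 334 higher (1.73%) and 312 lower genes (1.62%), in all 646 or 3.34% of those tested, where 966 would be reached by chance. The median log2 fold change was -0.00 and 49.2% of genes had a positive one. The differences that the data leave room for were small for most expressed genes. The 95% interval of the fold change lay inside a 2-fold change either way for 78.9% of all genes and for 99.4% of the 10846 genes above a mean of 10 CPM. For 97.3% of the 10846 it lay within 0.5 either way on the log2 scale. For the remainder, larger differences cannot be told from none at this number of libraries.

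Each form on its own gave the same count. CU1ENC against CU1 called 0 genes (0%) with 807 at an unadjusted edgeR p under 0.05, and CU1ENU against CU1 called 0 (0%) with 481. Both use the same CU1 libraries. CU1ENC against CU1ENU, which share none, also called 0 of 19316 (0%), with 527 at an unadjusted p under 0.05. In CU1EN against empty vector edgeR called 2 genes, 0.0104% of those tested, and both lay at the plasmid locus: LINC01016 (adjusted p = 0.000253) and ENSG00000233183 (adjusted p = 0.0330) were higher in CU1EN. CU1 against empty vector called 1 gene (0.00518%), LINC01016 (adjusted p = 0.000277), while ENSG00000233183 had an adjusted p of 0.0723 and passed without the replicate block (0.0260). The ENSG00000233183 call in CU1EN against empty vector ended when any 1 of the 8 libraries of CU1ENC, CU1ENU, CU1 and empty vector was left out.

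The replicates can be set against each other because they share no library. Over 10788 genes above 10 CPM, the mean CU1EN minus CU1 difference of replicate 1 and that of replicate 2 had a correlation across genes of r = 0.01 (Spearman 0.02). Genes are not independent replicates, and this is a description. The SD of the differences was 0.124 in replicate 1 and 0.114 in replicate 2 on the log2 scale, and 51.7% of genes had the same sign. Empty vector against parental cells, measured the same way, gave r = 0.87 with 83.3% of genes of the same sign and 1100 genes beyond 0.5 in the same direction in both replicates. For CU1EN against CU1 only 3 genes were beyond 0.5 in the same direction in both. They were BCYRN1 (2.87 and 2.74 in replicates 1 and 2), ENSG00000233183 (0.90 and 0.75) and RN7SL1 (-0.55 and -0.71).

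**Figure D2:**
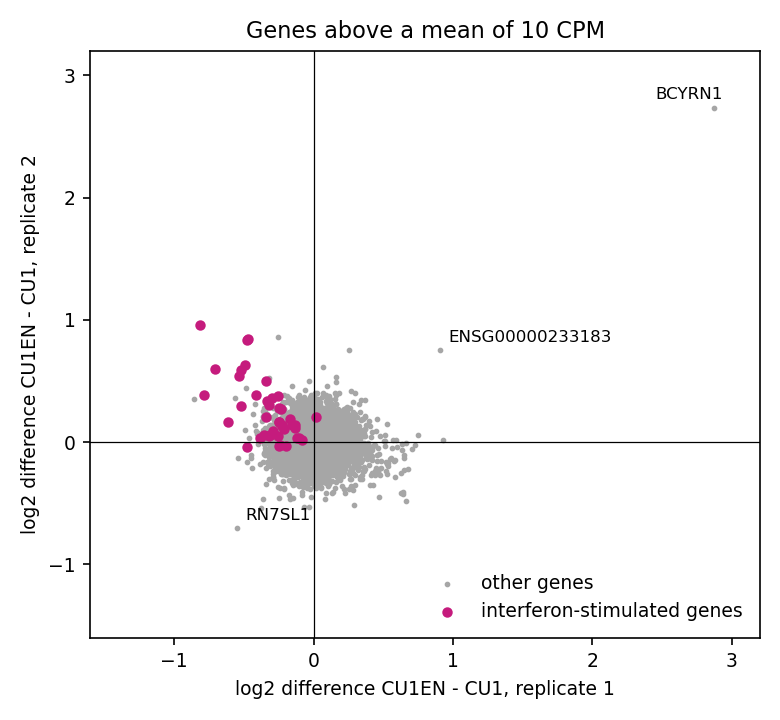
Log2 difference of the mean CU1EN level from the CU1 level in replicate 1 (x axis) and replicate 2 (y axis), 1 point per gene above a mean of 10 CPM, with interferon-stimulated genes in colour. The cloud shows no common direction (r = 0.01), the 3 labelled genes stand outside it, and interferon-stimulated genes lie mostly at negative x and positive y.

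BCYRN1, also known as BC200, is a short cytoplasmic RNA made by RNA polymerase III and best known from neurons, where it restrains translation. Its level, as CPM scaled by TMM factors like all gene levels from here on, was 81.9 and 152 in CU1ENC, 13.9 and 6.14 in CU1ENU, and 4.55 and 4.55 in CU1. The CU1ENC libraries were high, while CU1ENU replicate 2 lay close to CU1. Empty vector libraries had 4.60 and 7.24 CPM, and parental libraries 60.7 and 5.18 CPM, so 1 untransfected library was also high. The log2 fold change was 2.93 ± 1.05 for CU1EN, 4.73 ± 1.07 for CU1ENC and 1.12 ± 1.27 for CU1ENU against CU1 (edgeR adjusted p = 1.00 in each). DESeq2 with the block called CU1ENC against CU1 (adjusted p = 0.0104). CU1ENC minus CU1ENU was 3.61 by edgeR, with an adjusted p of 1.00.

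RN7SL1, the scaffold that brings ribosomes making secreted proteins to the endoplasmic reticulum, leaned the other way. It measured 177 and 152 CPM in CU1ENC, 132 and 224 CPM in CU1ENU, and 224 and 301 CPM in CU1. CU1ENU replicate 2 was within 1 CPM of CU1 replicate 1, and empty vector libraries at 292 and 165 CPM spanned most of that range. The log2 fold change in CU1EN against CU1 was -0.62 ± 0.29 SE with an edgeR adjusted p of 1.00, and it was -0.87 without CU1ENU replicate 2 and -0.34 without CU1 replicate 2. BCYRN1 and RN7SL1 were the tested members of a list of 20 polymerase III and small nuclear RNAs. Both have many related copies in the genome, so their counts are uncertain.

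The 12 genes of lowest unadjusted p in each direction among those with both CU1EN libraries on one side of CU1 in both replicates were next, and none passed. Such consistent placement was common: 2117 genes (11%) had both CU1EN libraries above CU1 in both replicates and 2347 (12.2%) had both below. The fitted differences of the 24 genes were small, from 0.16 to 0.74 among the higher and -0.17 to -0.71 among the lower on the log2 scale. Their sign was fixed by the choice of genes and is no sign of stability. Each has an edgeR adjusted p of 1.00. Choosing genes in this way also favours those in which CU1 lies apart from empty vector.

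Among the higher genes SGSM2, a regulator of RAB GTPases in vesicle transport, had the lowest p. It measured 79.6 and 58.9 CPM in CU1ENC, 76.4 and 59.4 CPM in CU1ENU, and 64.3 and 51.3 CPM in CU1. Within each replicate number both forms were above CU1, but the groups overlapped, since replicate 1 was the higher library throughout. Its log2 fold change was 0.24 ± 0.06 SE. Empty vector libraries stood at 78.3 and 59.4 CPM, so SGSM2 in CU1EN differed from empty vector by -0.01 and in CU1 by -0.25.

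GGA3, a clathrin adaptor that sorts cargo from the Golgi to lysosomes, was at 0.21 ± 0.07. GUSB, lysosomal beta-glucuronidase, was at 0.16 ± 0.06. SNHG17, a small nucleolar RNA host gene, was at 0.24 ± 0.07, and NOA1, a GTPase needed for mitochondrial ribosomes, was likewise at 0.24 (± 0.08). DNHD1, a dynein heavy chain relative, was at 0.35 ± 0.11, and YDJC, a sugar deacetylase homologue, at 0.19 ± 0.06. SPEF2, a sperm flagellar protein, was at 0.50 ± 0.16 and the sorting receptor SORCS1 at 0.45 ± 0.14, while without CU1 replicate 2 they were at 0.19 and 0.23 and without CU1 replicate 1 at 0.90 and 0.78. ZNF891, a zinc finger gene, was at 0.51 ± 0.16 and the long non-coding RNA LINC03011 at 0.74 ± 0.26, while without CU1 replicate 1 they were at 0.32 and 0.47 and without CU1 replicate 2 at 0.69 and 1.06. ZFYVE28, an endosomal protein that limits epidermal growth factor receptor signalling, was at 0.70 ± 0.24, with a range of 0.53 to 0.84 over the alternatives. Against empty vector, SORCS1 was at 0.37 in CU1EN and -0.08 in CU1. Every other higher gene lay closer to empty vector in CU1EN than in CU1, such as GUSB (0.03 and -0.13), GGA3 (-0.06 and -0.28) and LINC03011 (-0.01 and -0.75). None of these passed against empty vector. Choosing genes by their difference from CU1 favours such closeness, and its share over all genes was not counted.

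Among the lower genes CTPS2, a CTP synthase of nucleotide supply, had the lowest p. It measured 75.8 and 63.8 CPM in CU1ENC, 81.1 and 68.2 CPM in CU1ENU, and 92.8 and 76.4 CPM in CU1. Again the forms lay below CU1 within each replicate number while CU1ENU replicate 1 overlapped CU1 replicate 2. Its log2 fold change was -0.23 ± 0.06 SE.

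STING1, the adaptor that passes the signal of cytosolic DNA to interferon production, came next. It measured 12.4 and 10.5 CPM in CU1ENC, 11.7 and 9.21 CPM in CU1ENU, and 15.5 and 13.7 CPM in CU1. All 4 CU1EN libraries lay below both CU1 libraries. Among the lower genes this also held for TTLL1, NPC2, NR5A2, FZD3, LINC00857 and CHID1, but not for CTPS2, SESN1, SNRNP25, UNC5D and EMX2OS. How many of all genes show it was not counted, and the choice of these genes by lowest p and placement favours it. The log2 fold change of STING1 was -0.41 ± 0.11 SE with a 95% interval of -0.65 to -0.18, and its edgeR adjusted p was 1.00. T1 libraries measured 13.9 and 11.8 CPM, T2 libraries 15.2 and 13.5 CPM, and CU2 libraries 15.3 and 13.3 CPM. Empty vector libraries measured 11.5 and 10.8 CPM and parental libraries 18.3 and 18.6 CPM. The CU1EN level therefore differed from empty vector by -0.03 on the log2 scale and the CU1 level by 0.38, values that share the empty vector libraries.

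SESN1, a p53 target that restrains mTORC1, was at -0.21 ± 0.06, and NPC2, which moves cholesterol out of lysosomes, was at -0.25 ± 0.07. NR5A2, a nuclear receptor, was at -0.69 ± 0.21, TTLL1, a tubulin polyglutamylase, at -0.71 ± 0.21, and UNC5D, a netrin receptor, at -0.68 ± 0.21. FZD3, a Wnt receptor, was at -0.22 ± 0.07, SNRNP25, a protein of the minor spliceosome, at -0.23 ± 0.07, and CHID1, a chitinase-like protein, at -0.17 ± 0.05. The RNAs EMX2OS, antisense to the kidney development gene EMX2, and LINC00857 were at -0.53 ± 0.17 and -0.52 ± 0.17. Against empty vector, NR5A2 was at -0.61 in CU1EN and 0.08 in CU1, LINC00857 at -0.56 and -0.04, and EMX2OS at -0.33 and 0.20. Every other lower gene lay closer to empty vector in CU1EN than in CU1, such as CHID1 (-0.03 and 0.13), FZD3 (-0.02 and 0.20) and UNC5D (0.07 and 0.75). None of these passed against empty vector. As for the higher genes, the choice by difference from CU1 favours such closeness, and its share over all genes was not counted.

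**Figure D3:**
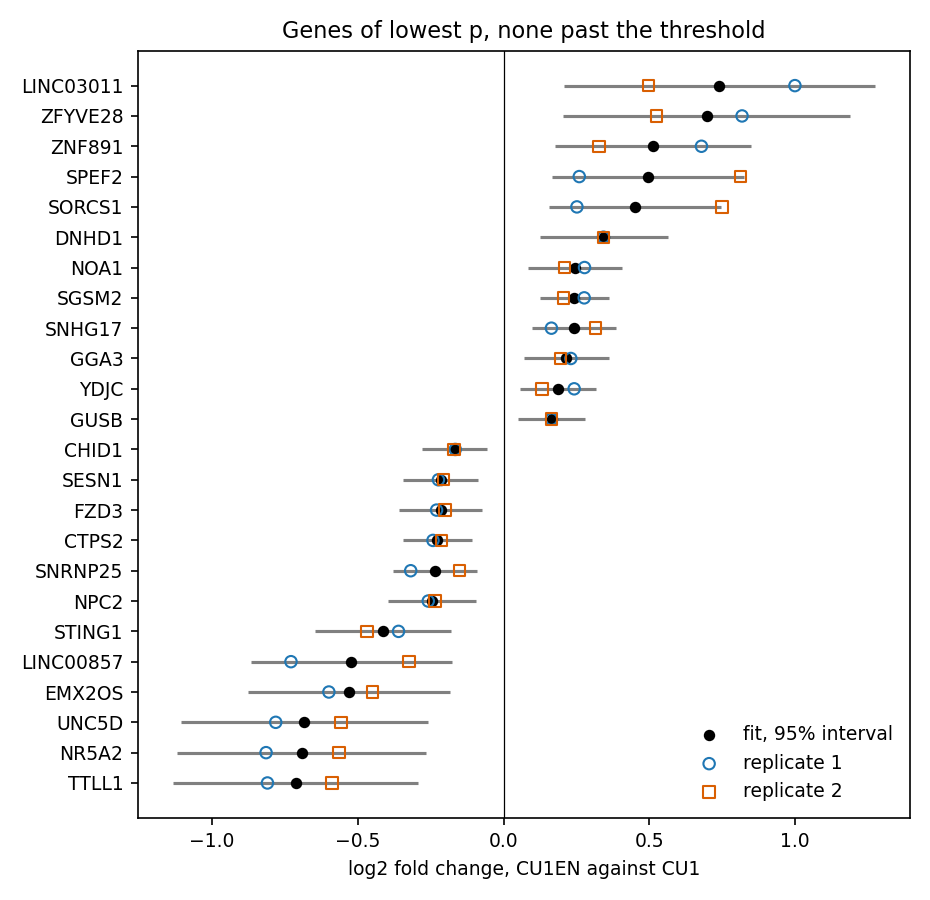
Log2 fold change in CU1EN against CU1 for the 12 genes of lowest unadjusted p in each direction; filled points and lines give the fit with its 95% interval, open circles the replicate 1 difference and open squares the replicate 2 difference. Both replicates fall on the same side of 0, as the choice of genes requires, and no gene passed the adjusted threshold.

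By single form, leading genes were again without a call. For CU1ENC against CU1, ADAP1, a GTPase-activating protein of ARF proteins, was at 0.80 ± 0.21 (0.23 ± 0.22 in CU1ENU), and CENATAC, a splicing factor of AT-AC introns, at 0.40 ± 0.11 (0.10 ± 0.11 in CU1ENU). HMGB3, a chromatin protein, was at -0.21 ± 0.06 in CU1ENC and -0.04 ± 0.06 in CU1ENU. For CU1ENU against CU1, TTC30B, an intraflagellar transport protein, was at 0.54 ± 0.15 (0.09 ± 0.16 in CU1ENC), and SUGCT, an enzyme of glutarate metabolism, at -0.92 ± 0.27 (-0.22 ± 0.26 in CU1ENC). None of these differed between CU1ENC and CU1ENU at an adjusted edgeR p under 0.05.

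**Figure D4:**
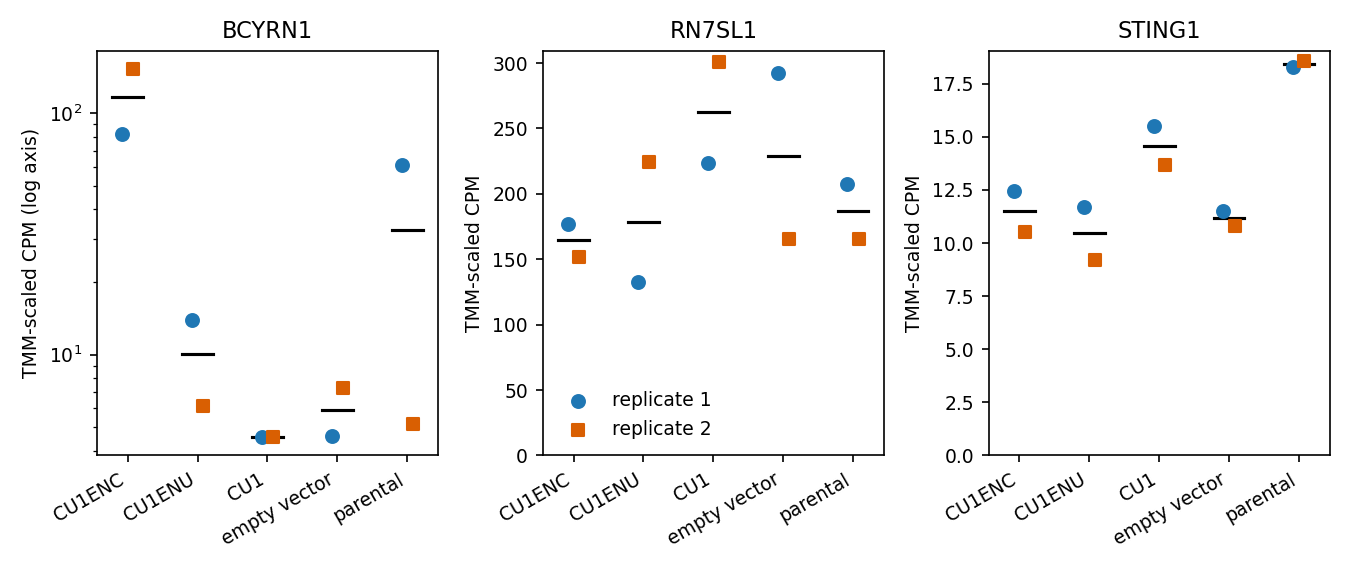
TMM-scaled CPM of BCYRN1 (log axis), RN7SL1 and STING1 in each library, with circles for replicate 1, squares for replicate 2 and bars for group means. BCYRN1 was high in both CU1ENC libraries (81.9 and 152 CPM) and in parental replicate 1, RN7SL1 varied within groups, and STING1 in the CU1EN forms (9.21 to 12.4 CPM) lay below CU1 (13.7 and 15.5 CPM).

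Fits restricted to the 6 libraries gave the only calls in CU1EN against CU1. With 3 group means and the block, which leave 2 residual degrees of freedom, 3 genes were higher and 3 lower, where the fits of 14 or more libraries gave 0. The higher ones were ENSG00000233183, the mitochondrial pseudogene MTATP6P1 (0.27, adjusted p = 0.0196) and the keratin gene KRT17 (0.19, adjusted p = 0.0333). The lower ones were the ribosomal protein pseudogene RPS2P5 (-0.17, adjusted p = 0.0196), PTMA, which encodes prothymosin alpha (-0.15, adjusted p = 0.0333), and SLFN5 (-0.43, adjusted p = 0.0196), all by edgeR. These genes were named after their values were seen. SLFN5 was also the 1 gene called when the 6 libraries were fitted with CU1ENC and CU1ENU as 1 group (-0.44, adjusted p = 0.0367).

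SLFN5, a member of the schlafen family that interferon induces, measured 58.7 and 19.3 CPM in CU1ENC, 48.0 and 22.9 CPM in CU1ENU, and 69.0 and 30.5 CPM in CU1. Both forms were below CU1 within each replicate number, while replicate 1 was higher in every group, so the groups overlapped. Empty vector libraries had 42.2 and 27.0 CPM and parental libraries 36.8 and 35.3 CPM. In the fit of 16 libraries its log2 fold change was -0.43 ± 0.31 SE with an adjusted p of 1.00.

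Interferon-stimulated genes, the antiviral effectors induced by type I and III interferon, differed in opposite directions between the replicates. In replicate 1 the CU1EN mean was above CU1 for 4 of 54 tested genes, with a median log2 difference of -0.32. In replicate 2 it was above CU1 for 45 of 54, with a median of 0.18. The medians over all tested genes were -0.01 and -0.00. By library, the medians against the CU1 library of the same number were -0.18 for CU1ENC and -0.41 for CU1ENU in replicate 1, and 0.11 for CU1ENC and 0.26 for CU1ENU in replicate 2. CU1ENU was the farther from CU1 in both, in opposite directions, and the difference between replicates was not tested.

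The level of the whole program differed more between replicate numbers than between forms. Summed over the list, CU1ENC had 6519 and 1576 CPM in replicates 1 and 2, CU1ENU 5556 and 1761 CPM, and CU1 7390 and 1515 CPM. CU1 thus held both the highest and the lowest sum of the 6 libraries. Empty vector libraries had 4456 and 2353 CPM and parental libraries 1149 and 1256 CPM. The part of the replicate number in the interferon result was measured only as these values, and what it marks is not given in the labels.

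ISG15, a ubiquitin-like antiviral protein whose promoter is printed above, measured 288 and 39.4 CPM in CU1ENC, 245 and 46.3 CPM in CU1ENU, and 286 and 41.7 CPM in CU1. IFIT1, which binds viral RNA, measured 372 and 37.7 CPM in CU1ENC, 311 and 56.6 CPM in CU1ENU, and 488 and 37.6 CPM in CU1. The groups overlapped for both genes. IFNB1, the gene of interferon beta itself, had 13 and 2 counts in CU1ENC, 12 and 2 counts in CU1ENU, and 29 and 3 counts in CU1. Of these only replicate 1 exceeds a count floor of 3, and there both forms lay below CU1. With the replicate block, edgeR gave -0.06 ± 0.62 for ISG15, -0.26 ± 0.85 for IFIT1 and -1.02 ± 0.59 for IFNB1, with an adjusted p of 1.00 for each.

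In the fit, 4 of 54 interferon-stimulated genes had a positive fold change and the median was -0.16, beside 49.2% positive and a median of -0.00 over all tested genes. No member passed, and none had an unadjusted p under 0.05. The median was -0.52 without CU1 replicate 2 and 0.60 without CU1 replicate 1, so its direction depended on 1 library. Interferon-induced chemokines gave 5 positive of 10 (median 0.03), and their member CXCL10 was at -1.45 ± 0.81. MHC class I presentation genes, which interferon also raises, gave 6 positive of 15, with medians of -0.17 in replicate 1 and 0.01 in replicate 2.

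**Figure D5:**
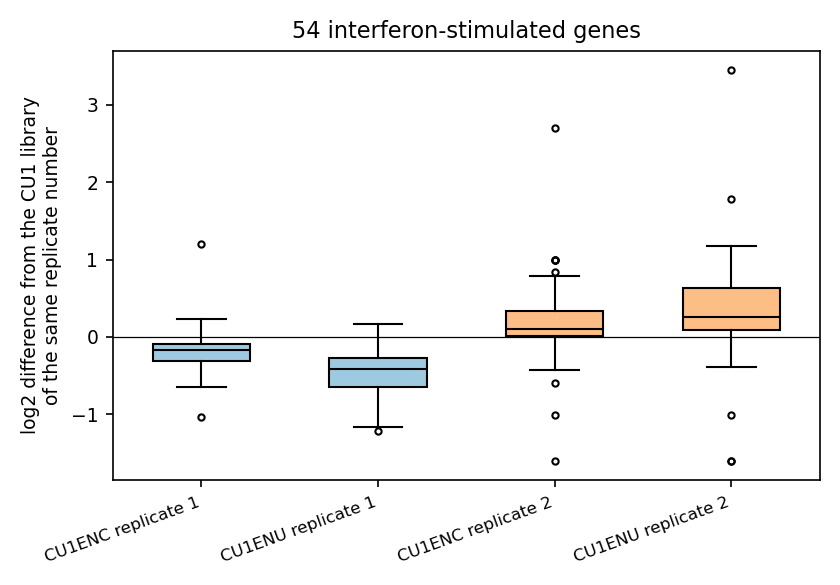
Log2 difference of each of 54 interferon-stimulated genes in 1 CU1EN library from the CU1 library of the same replicate number; boxes span the quartiles, lines mark medians, whiskers reach the farthest gene that is not drawn as a point of its own. Medians are -0.18 and -0.41 in replicate 1 and 0.11 and 0.26 in replicate 2, opposite in sign.

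The other gene lists had 0 members that passed (0% called), and their medians are given beside the median of -0.00 over all genes. Immediate-early genes, the first wave of transcription after a stimulus, were positive for 29 of 35 with a median log2 fold change of 0.06. The median stayed positive under all 15 alternatives, from 0.03 to 0.10, but in replicate 1 alone 18 of 35 were positive (median 0.00) and in replicate 2 alone 28 of 35 (median 0.11). FOSL1, an AP-1 subunit, led in p. It measured 11.01 and 20.02 CPM in CU1ENC, 13.98 and 17.4 CPM in CU1ENU, and 9.60 and 14.7 CPM in CU1, above CU1 within each number, at 0.37 ± 0.15. Its relative FOSL2 was at 0.17 ± 0.07 and IER5 at -0.12 ± 0.06.

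Stress programs stood close to all genes. The integrated stress response, the ATF4 program of amino acid supply, gave 23 positive of 35 (median 0.03), with the inhibitor TRIB3 at 0.16 ± 0.07, the amino acid transporter SLC7A5 at 0.12 ± 0.06 and the factor CEBPG at 0.09 ± 0.05. The unfolded protein response of the endoplasmic reticulum gave 15 of 27 (median 0.01), with the co-chaperone DNAJB11 at -0.15 ± 0.06. Heat shock genes gave 6 of 23 (median -0.03), oxidative stress genes of NRF2 7 of 17 (median -0.03) and p53 targets 8 of 25 (median -0.03). Within the NRF2 list the quinone reductase NQO1 was at -0.70 ± 0.26 and the heme oxygenase HMOX1 at 0.24 ± 0.10, in opposite directions. RRM2B, a p53-induced subunit of ribonucleotide reductase, was at -0.13 ± 0.06. NF-kB pathway genes gave 11 of 20 (median 0.05), with the subunit RELA at 0.09 ± 0.06 and the receptor TNFRSF9 at 0.34 ± 0.21.

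Growth and biosynthesis lists also had medians within 0.06 of 0. G1/S and DNA replication genes gave 12 positive of 30 (median -0.01) and G2 and mitosis genes 12 of 30 (median -0.02), with the mitotic kinase CDK1 at -0.12 ± 0.06. Replication-dependent histones gave 12 of 29 (median -0.02). Ribosome biogenesis genes gave 18 of 32 (median 0.00). Cytosolic ribosomal proteins gave 30 of 78 (median -0.02), with RPL17 at -0.25 ± 0.08, RPS14 at -0.11 ± 0.05 and RPL13A at -0.13 ± 0.07. SR proteins and hnRNPs, which guide splicing, gave 7 of 31 (median -0.02), with HNRNPD at -0.10 ± 0.05. Cholesterol synthesis genes gave 7 of 25 with a median of -0.05 that stayed negative under all 15 alternatives (-0.08 to -0.01), and SC5D, a late sterol desaturase, was at -0.12 ± 0.07. Nuclear-encoded respiratory chain subunits gave 29 of 76 (median -0.02), with NDUFB6 at 0.14 ± 0.06, NDUFB5 at -0.14 ± 0.07 and ATP5F1A at -0.10 ± 0.05.

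Several lists had different counts in the 2 forms, and no difference of a list between forms was tested. Over all tested genes, 49.4% were positive in CU1ENC against CU1 and 49.6% in CU1ENU against CU1. Cytosolic ribosomal proteins were positive for 44 of 78 in CU1ENC against CU1 (median 0.01) and 15 of 78 in CU1ENU against CU1 (median -0.05). Heat shock genes gave 4 and 13 of 23 (medians -0.06 and 0.01), and G2 and mitosis genes 10 and 18 of 30 (medians -0.05 and 0.01), in the same order of forms. All 13 mitochondrially encoded genes were positive in CU1ENC against CU1 (median 0.15), and 2 of 13 were in CU1ENU against CU1 (median -0.05), with the CU1 libraries shared. MT-CO1, a catalytic subunit of cytochrome oxidase, measured 4688 and 3997 CPM in CU1ENC, 4310 and 3341 CPM in CU1ENU, and 4137 and 3551 CPM in CU1. MT-ND2, a subunit of complex I, measured 700 and 761 CPM in CU1ENC, 690 and 607 CPM in CU1ENU, and 656 and 617 CPM in CU1. The fitted differences were 0.18 ± 0.21 and 0.21 ± 0.26 in CU1ENC, within their errors. Most of these genes are cut from 1 long precursor RNA, so their directions are not independent. MT-CO1 was called in CU1ENC against CU1 only in the fit of 6 libraries (0.18, edgeR adjusted p = 0.0193).

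Small nucleolar RNA host genes, spliced RNAs whose introns carry guide RNAs for ribosomal RNA modification, were positive for 17 of 23 in CU1ENC against CU1 (median 0.12) and 9 of 23 in CU1ENU against CU1 (median -0.02). The shares over all tested genes were 49.4% and 49.6%. SNHG17 measured 71.1 and 83.9 CPM in CU1ENC, 71.9 and 71.3 CPM in CU1ENU, and 63.8 and 62.2 CPM in CU1, with no overlap between CU1EN and CU1. GAS5 measured 142 and 122 CPM in CU1ENC, 126 and 111 CPM in CU1ENU, and 118 and 105 CPM in CU1, with overlap. SNHG16 measured 113 and 127 CPM in CU1ENC, 118 and 124 CPM in CU1ENU, and 138 and 131 CPM in CU1, below CU1 in all 4 libraries. Such separation was not counted over all genes, and these members were chosen by lowest p, which favours it. The fitted values in CU1EN were 0.24 ± 0.07, 0.16 ± 0.06 and -0.16 ± 0.06, so members went both ways. Hypoxia and glycolysis genes gave 15 positive of 32 in CU1EN (median -0.01), with the glucose transporter SLC2A1 at 0.19 ± 0.07. YAP and TEAD targets gave 8 of 14 (median 0.01), estrogen response genes 10 of 20 (median -0.00), neuronal genes 8 of 16 (median 0.01), germ cell genes 4 of 7 (median 0.05) and metallothionein and zinc genes 5 of 7 (median 0.13).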

How the data were processed

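The data were RNA-seq read counts per gene for 16 libraries of HEK293 cells, of which the 2 CU1ENC, 2 CU1ENU and 2 CU1 libraries are compared, with groups and replicate numbers taken from the sample titles. Per the labels, RNA had integrity numbers above 9 and dUTP-marked paired-end libraries kept strand. The authors deposited whole-number counts without normalization. Per the file headers, featureCounts 2.0.1 counted read pairs with strand option 2 over exons of each gene in Ensembl release 101. Per the submitters' processing notes the tools included HISAT2 and DESeq2 and the build was GRCh38.p13, with no version of either tool. Alignment settings and the handling of reads with several matches were not given in the sources used here, which leaves counts of pseudogenes and other close copies uncertain. Symbols were matched by identifier for 60401 of 60671 genes.

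Counts were tested with edgeR 4.0.16 in R 4.3.3 after filterByExpr by group (minimum count 10, minimum total 15; 19316 genes kept) and TMM scaling (factors 0.974 to 1.03). Its robust quasi-likelihood F-test used 8 group means and the replicate number as a block over 16 libraries, with 7 residual degrees of freedom. The contrast was the mean of CU1ENC and CU1ENU minus CU1, adjusted by Benjamini-Hochberg over all genes at 0.05. Each SE came from its F statistic (size of the log2 fold change over the root of F), so intervals are approximate. Alternatives were no block, the 6 or the 14 transfected libraries alone, RLE factors, other filters, leaving out the plasmid locus or 1 library, and DESeq2 1.42.0 with the block. Values by replicate and list counts are log2 differences of CPM with a prior count of 1 or fitted values, as stated.

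With group means subtracted, libraries of the same number correlated in each of 28 pairs of groups (r from 0.143 to 0.414, and 0.338 to 0.414 in the 3 pairs among the compared groups), and were taken as paired. The labels do not say what a number marks. No group held 1 library deposited more than once, as the chi-square between its libraries, per degree of freedom, was 16.1 in CU1ENC, 12.3 in CU1ENU and 15.0 in CU1. Exact permutation tests were two-sided. Named genes were LINC01016, ENSG00000233183, the 12 of lowest p in each direction in CU1EN against CU1, the 3 of lowest p in each direction for each form and up to 3 members of lowest p in each of 32 lists. The 12 and the 3 per form had a mean log2 CPM of 1 or more and a symbol that is no clone name. LINC01016, ENSG00000233183 and the list members had no such limit, so some, such as IFNB1 (mean log2 CPM -1.17), are low. The 12 also had to have every CU1EN library on the same side of the CU1 library of its replicate number. Not every named gene is described. The members and gene lists were chosen with earlier results of these data known. ISG15, IFIT1, SLFN5 and genes called only under an alternative were named after their values were seen. BCYRN1, RN7SL1 and ENSG00000233183 also meet a limit of 0.5 in both replicates. The sequences of BCYRN1 and RN7SL1 are not reported here.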

Additional observations from a re-analysis of the deposited data

Results flagged for a closer look

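Within the 4 CU1EN libraries, 5 of 132 genes checked had a library far from the others by Dixon's criterion, which compares the gap to the nearest library, divided by the range, with its 95% critical value. Chance marks about 1 in 20 groups. SNHG17 (ratio 0.940) was highest in CU1ENC replicate 2, at 83.9 CPM against 71.1 to 71.9 CPM in the other 3 CU1EN libraries. NR5A2 (ratio 0.842) was highest in CU1ENU replicate 2, at 4.12 CPM against 3.23 to 3.37 CPM in the others. UNC5D (ratio 0.874) was highest in CU1ENU replicate 1, at 4.81 CPM against 3.01 to 3.24 CPM in the others. INA, a neuronal intermediate filament gene (ratio 0.877), was lowest in CU1ENC replicate 1, at 32.7 CPM against 37.04 to 37.7 CPM in the others. RPL18AP3, a ribosomal protein pseudogene (ratio 0.891), was highest in CU1ENU replicate 2, at 14.2 CPM against 1.65 to 3.01 CPM in the others.

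The median log2 difference of interferon-stimulated genes in CU1EN against CU1 was -0.32 in replicate 1 and 0.18 in replicate 2, and replicate 1 minus replicate 2 came to -0.49. Both CU1EN libraries of replicate 1 had a median below 0 and both of replicate 2 above 0. This difference was not tested.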

How the results depend on the processing

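In CU1EN against CU1 the count of genes past the threshold was 0 by edgeR under no replicate block, the 14 transfected libraries, RLE factors, no filter, a stricter filter and the locus left out, and 0 by DESeq2 with the block. It was 0 to 0 when 1 library was left out, 6 with only the 6 libraries and 1 with those 6 and CU1ENC and CU1ENU as 1 group. CU1ENC against CU1 gave 8 with the 6 libraries and 1 by DESeq2, and 0 to 0 without 1 library. The 8 were ENSG00000233183, MTATP6P1, KMT2D, MT-CO1, GAS5 and SRRM2 (higher) and RPS2P5 and PTMA (lower). CU1ENU against CU1 gave 1 with the 6 libraries (ENSG00000233183) and 0 to 1 without 1 library. That 1 was the pseudogene RPL18AP3 without CU1ENU replicate 1, a gene at 14.2 CPM in CU1ENU replicate 2. CU1EN against empty vector gave 2, and 1 with no filter, 0 with the locus left out and 1 to 1 without 1 library. CU1 against empty vector gave 1, and 2 without the replicate block, 2 with no filter, 2 by DESeq2, 0 with the locus left out and 1 to 1 without 1 library. The cause of these moves was not tested, except that leaving out the locus removes the called genes.

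The log2 fold change of LINC01016 was -0.011 without the replicate block and -0.26 to 0.32 without 1 library, below 0 without CU1ENC replicate 2 (-0.049), CU1ENU replicate 1 (-0.055) or CU1 replicate 2. Without 1 library, the fitted value ranged from -1.603 to 0.66 for IFNB1, -2.73 to 0.51 for IFNL1, -3.38 to 1.12 for CXCL10, -0.45 to 0.60 for ISG15, -0.84 to 0.84 for IFIT1, -0.065 to 0.23 for MT-CO1, -0.026 to 0.26 for MT-ND2 and -0.13 to 1.42 for RPL18AP3. The sign turned without CU1 replicate 1 in each of these but RPL18AP3, without CU1ENC replicate 2 for MT-ND2 and ISG15, and without CU1ENU replicate 2 for ISG15 and RPL18AP3. Between the CU1EN forms and CU1, leaving out the block changed no call. Leaving out a library left its group with 1, which is then taken to vary like the other groups, and also widened the filter. With 2 libraries in CU1, small differences of low genes were not detectable.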
